A study of Mus musculus with 2 samples.

Results

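Aminoacyl-tRNA synthetases are the enzymes that load amino acids onto transfer RNAs. Genes were taken where the gene symbol had the form of a synthetase name and at least 1 transcript was annotated as protein coding. The rule gave 37 genes of 55536 annotated genes, of which 22028 were protein coding. They were 20 genes of cytosolic enzymes and 17 genes of mitochondrial enzymes, and no measured value entered the choice. The tissue was gastrocnemius, a fast calf muscle, from 14-day-old female B6CASTF1/J mice, an F1 cross between C57BL/6J and CAST/EiJ. Total RNA, 300 ng per library, was sequenced after ribosomal RNA reduction, giving 2 libraries that form 1 group, called replicates 1 and 2. No treatment, age or tissue was compared. Both library descriptions speak of 3 females, whereas the tissue description of replicate 2 is in the singular, so whether each library came from pooled animals is not settled by the labels.

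A synthetase recognises its amino acid and the matching transfer RNAs, joins them at the cost of ATP, and so sets the reading of the genetic code. Nuclear genes encode a cytosolic set and a separate set that is imported into mitochondria, where it serves the translation of the few respiratory chain subunits made there. Class I and class II enzymes have unrelated catalytic folds, and in animals several cytosolic enzymes are held in a multi-synthetase complex by scaffold proteins. Skeletal muscle makes large amounts of contractile protein and is rich in mitochondria, and inherited defects of several mitochondrial synthetases affect muscle, heart, brain or hearing.

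The deposited gene tables assigned 35592003 counts to genes in replicate 1 and 42105856 in replicate 2. The synthetases took 47892 and 59812 of these counts, or 0.135% and 0.142%. Genes of muscle fibres were abundant in both libraries, as the skeletal actin gene Acta1 reached 28140 and 30304 TPM (transcript abundance corrected for length and scaled to the library). The libraries differed in genes of some other cells. All 4 Schwann cell markers were at least 1.5-fold higher in replicate 2 (summed TPM 254.5 and 672.6), all 3 erythroid markers were at least 1.5-fold lower (2051 and 1042), and of 4 fibroblast markers the collagen gene Col1a1 was 1.55-fold higher. The 5 muscle fibre, 4 endothelial and 4 macrophage markers did not pass that fold. Among all genes with a summed count of at least 20, 13.5% passed it in either direction. In bulk tissue, fewer cells of a type and less RNA per cell cannot be told apart.

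Some synthetase promoters carry a sequence read by the stress-induced factor ATF4, and Kars makes a cytosolic and a mitochondrial enzyme from the same locus. These sequences are shown because results below are grouped by them. Of the 37 genes, 27 matched an entry of the RefSeq promoter table (GRCm38.p6, 250 bases before to 50 after the start). The core of the C/EBP-ATF response element, TGATGNAA on either strand, was found in the windows of 5 synthetase genes, Aars, Gars, Iars, Tars and Yars. It was found in 3.97% of all 32851 promoters of the same length. All 5 were cytosolic enzymes, 5 of 13 with a window, and 0 of 14 mitochondrial windows held it. The windows are given from 120 bases before to 20 after the start, 5′ to 3′ on the gene's strand, with the element in capitals.
Aars (chr8:111033722-111033861, plus strand): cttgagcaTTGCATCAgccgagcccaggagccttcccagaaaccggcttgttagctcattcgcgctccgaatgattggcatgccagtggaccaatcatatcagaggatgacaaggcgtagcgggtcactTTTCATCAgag
Gars (chr6:55037881-55038020, plus strand): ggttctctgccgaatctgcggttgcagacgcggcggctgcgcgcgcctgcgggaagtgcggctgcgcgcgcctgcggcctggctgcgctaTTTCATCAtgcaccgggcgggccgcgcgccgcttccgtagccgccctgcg
Iars (chr13:49682010-49682149, plus strand): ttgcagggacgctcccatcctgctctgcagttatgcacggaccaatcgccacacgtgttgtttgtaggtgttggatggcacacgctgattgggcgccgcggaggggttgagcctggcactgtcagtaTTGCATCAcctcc
Tars (chr15:11399639-11399778, minus strand): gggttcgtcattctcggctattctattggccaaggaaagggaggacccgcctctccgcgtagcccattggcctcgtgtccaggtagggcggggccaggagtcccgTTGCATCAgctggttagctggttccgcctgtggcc
Yars (chr4:129189783-129189922, plus strand): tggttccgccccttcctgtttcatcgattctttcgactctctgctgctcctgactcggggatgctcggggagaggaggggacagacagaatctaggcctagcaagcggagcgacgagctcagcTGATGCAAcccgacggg

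Aars, the alanine enzyme, held the element at positions -112 and 10 relative to the start, the latter within the start of the transcript. In Gars, the glycine enzyme, it began at -30, in Tars, the threonine enzyme, at -15, in Iars, the isoleucine enzyme, at 8 and in Yars, the tyrosine enzyme, at 4. A second motif, that of the respiratory factor NRF1, searched on either strand, lay in the windows of Farsb, Iars2, Kars, Mars2 and Tars, against 4.6% of all promoters. These 5 genes were 3 cytosolic and 2 mitochondrial enzymes. A match describes letters in a window and shows no binding.

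Kars, on the minus strand of chromosome 8 (mm10, 111993443 to 112011323), encodes lysyl-tRNA synthetase. Its transcripts differ at the coding start. Kars-201 encodes 595 codons, the known cytosolic form, and begins in exon 1. Kars-202 encodes 624 codons, the known mitochondrial form, whose added amino-terminal stretch directs import, and begins in exon 2, which Kars-201 skips. The coding part of the exon that holds each start codon is given 5′ to 3′ on the gene's strand, with the start codon in capitals (GENCODE M21, mm10).
Kars-201 (chr8:112011210-112011268, minus strand): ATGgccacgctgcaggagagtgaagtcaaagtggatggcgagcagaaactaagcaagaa
Kars-202 (chr8:112008207-112008352, minus strand): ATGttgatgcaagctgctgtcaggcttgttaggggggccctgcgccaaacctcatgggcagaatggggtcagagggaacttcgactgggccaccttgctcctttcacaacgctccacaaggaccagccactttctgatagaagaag

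All 37 synthetase genes reached at least 1 TPM in both libraries. Their median level was 16.4 TPM, against 8.38 TPM for the 11004 nuclear protein-coding genes that also reached 1 TPM in both. Together they summed to 671 TPM in replicate 1 and 732 TPM in replicate 2 (702 ± 43.1, SD, n = 2).

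**Figure D1:**
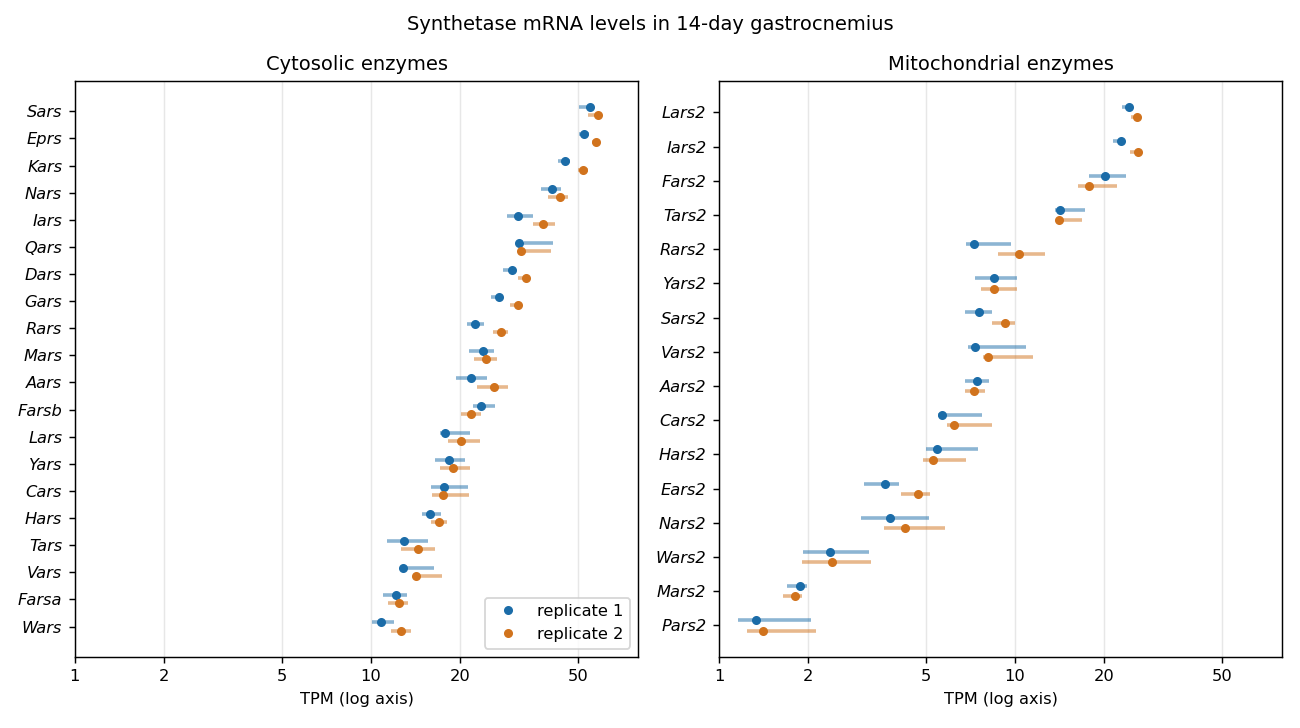
TPM of the synthetase genes, 1 mitochondrial gene left out, in both libraries on a log axis, cytosolic enzymes on the left and mitochondrial enzymes on the right, ordered by mean. Points are the deposited TPM and bars the deposited interval around the posterior mean, which need not be centred on the point or hold it. For Qars and Vars the point lies below the interval in both libraries. Cytosolic enzymes run from 11.7 to 56.6 TPM and mitochondrial enzymes from 1.37 to 25.1 TPM.

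Among cytosolic enzymes, the serine enzyme Sars (ENSMUSG00000068739.13, chromosome 3, 108424865 to 108445209) was at 54.8 and 58.5 TPM in replicates 1 and 2. Eprs, a single protein that charges both glutamate and proline, was at 52.5 and 57.6 TPM. Kars was at 45.3 and 52.3 TPM. These 3 genes led the order of gene-table TPM in both libraries, and the deposited intervals of Sars and Eprs overlapped each other. The asparagine enzyme Nars followed at 40.8 and 43.4 TPM. Sars and Eprs each had 35 synthetases clearly below them, meaning that the intervals did not overlap in either library, and 1 that was not apart. The top of the order depended on the quantification. The second transcript table, described below, put Lars2 at the top, above Eprs and Sars, and CPM, which is not divided by length, put Eprs, Aars and Iars there.

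A middle group of cytosolic enzymes ran from Iars to Aars in the order. The isoleucine enzyme Iars was at 31.3 and 38.3 TPM, the glutamine enzyme Qars at 31.6 and 32.1 TPM, and the aspartate enzyme Dars at 29.9 and 33.5 TPM. Iars and Dars were higher in replicate 2 in TPM, but their TMM-scaled counts had log2 ratios of -0.05 and -0.01 with intervals that held 0. Gars, which serves both cytosol and mitochondria and is mutated in an inherited neuropathy, was at 27.2 and 31.3 TPM. The arginine enzyme Rars was at 22.5 and 27.6 TPM, the methionine enzyme Mars at 23.9 and 24.5 TPM, and Aars at 21.8 and 26.0 TPM. In either library these 7 genes lay between 21.8 and 38.3 TPM.

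The lower cytosolic enzymes began with Farsb, which with Farsa forms the phenylalanine enzyme. The subunits were at unequal mRNA levels, Farsb at 23.6 and 21.8 TPM and Farsa at 12.2 and 12.4 TPM. The leucine enzyme Lars, also known as a leucine sensor upstream of mTORC1, was at 17.8 and 20.1 TPM. Yars was at 18.3 and 19.0 TPM, and the cysteine enzyme Cars at 17.6 and 17.5 TPM. The histidine enzyme Hars was at 15.9 and 17.0 TPM. Tars, at 12.9 and 14.5 TPM, the valine enzyme Vars, at 12.9 and 14.2 TPM, and the tryptophan enzyme Wars, at 10.8 and 12.6 TPM, closed the cytosolic order together with Farsa.

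Mitochondrial enzymes spanned a wider range on the log scale. Lars2, the leucine enzyme (ENSMUSG00000035202.8, chromosome 9, 123366927 to 123462666), was at 24.2 and 25.9 TPM, and Iars2, the isoleucine enzyme, at 22.8 and 25.9 TPM. Fars2, which charges phenylalanine as a single chain, was at 20.1 and 17.8 TPM, and the threonine enzyme Tars2 at 14.1 and 14.1 TPM. These 4 lay among the cytosolic enzymes in level, and the other mitochondrial genes all lay below every cytosolic gene in mean TPM. Rars2 was at 7.29 and 10.3 TPM, Yars2, mutated in an inherited myopathy with anaemia, at 8.49 and 8.50 TPM, and Sars2 at 7.56 and 9.25 TPM. Vars2 was at 7.34 and 8.09 TPM, and Aars2, mutated in an infantile cardiomyopathy, at 7.42 and 7.29 TPM. These 5 formed a plateau in which the order changed between libraries.

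Cars2 was at 5.65 and 6.22 TPM and Hars2 at 5.44 and 5.28 TPM. The glutamate enzyme Ears2 was at 3.63 and 4.70 TPM and the asparagine enzyme Nars2 at 3.79 and 4.24 TPM. The lowest levels were those of the tryptophan enzyme Wars2 (2.37 and 2.40 TPM), the methionine enzyme Mars2 (1.88 and 1.81 TPM) and the proline enzyme Pars2 (1.33 and 1.41 TPM). Pars2 rested on 83 and 100 counts, the fewest of any synthetase, against 6851 and 8779 for Eprs. Mars2 had 592 and 658 counts in spite of its low TPM, so its rank was lower per length than per count.

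The order was settled more between distant than between neighbouring ranks. Of 36 pairs of neighbours in the order of mean TPM, 21 had the same order in both libraries, and in 2 pairs the intervals were apart in both libraries. These were Eprs over Kars and Gars over Rars. The other neighbours did not differ beyond their intervals in both libraries.

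The summed level of the cytosolic genes was 524 TPM in replicate 1 and 574 TPM in replicate 2, and that of the mitochondrial genes 148 and 158 TPM. The ratio of these sums was 3.59 ± 0.0633 (SD, n = 2). The median gene was at 24.1 TPM in the cytosolic set and 7.36 TPM in the mitochondrial set. Gars and Kars, which supply both compartments from 1 gene each, were counted as cytosolic, and without them the ratio was 3.08.

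Set against each other by amino acid, 18 pairs of a cytosolic and a mitochondrial gene could be formed. In 14 pairs the cytosolic gene was higher with intervals apart in both libraries, in 2 the mitochondrial gene was higher, and 2 were not apart. The median log2 ratio over the pairs was 1.59. The largest ratio was that of Eprs over Pars2, 39.5-fold in replicate 1 and 40.8-fold in replicate 2. Eprs was 14.5-fold and 12.2-fold above Ears2. Both partners of Eprs were low, and Eprs charges both amino acids in the cytosol. Mars stood 12.7-fold and 13.6-fold above Mars2 in TPM and 2.43-fold and 2.48-fold in counts, as TPM divides by length. Nars was 10.8-fold and 10.2-fold above Nars2.

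**Figure D2:**
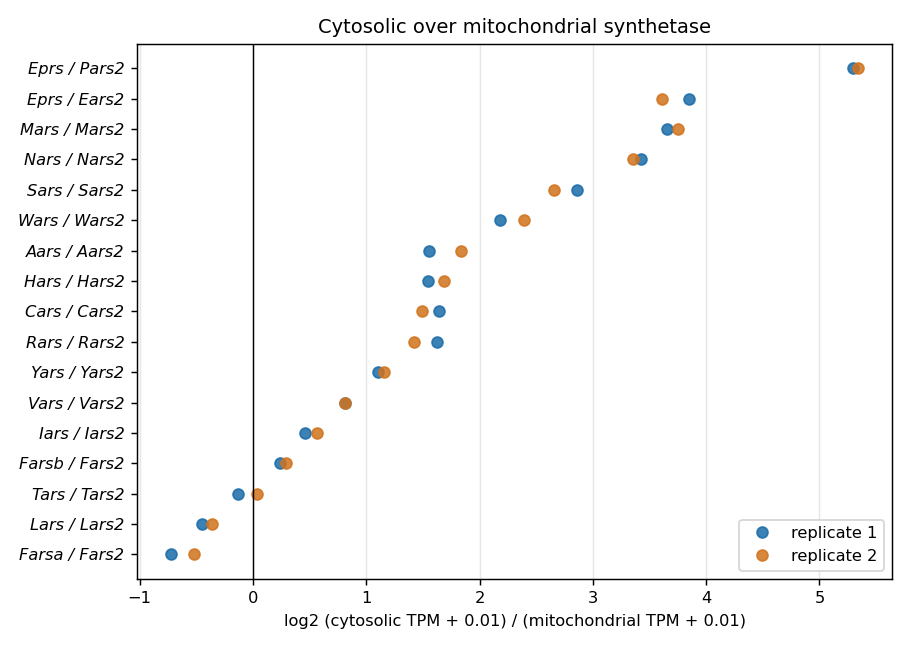
Log2 ratio of cytosolic over mitochondrial TPM for the pairs by amino acid, 1 of the 18 left out, 1 point per library, with the line at equal levels. Points right of the line have the higher cytosolic gene; Farsa over Fars2 and Lars over Lars2 lie left of it in both libraries, and Tars over Tars2 lies on both sides.

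Smaller ratios marked the pairs for serine (7.25-fold and 6.32-fold) and tryptophan (4.55-fold and 5.26-fold). Those for alanine, histidine, cysteine and arginine lay between 2.69-fold and 3.56-fold in either library. Tyrosine was at 2.16-fold and 2.23-fold, valine at 1.75-fold and 1.76-fold, and isoleucine at 1.37-fold and 1.48-fold. The cytosolic gene was the higher in every one of these pairs, with intervals apart.

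Leucine and, for the Farsa subunit alone, phenylalanine went the other way. Lars was 0.733 and 0.778 of the level of Lars2, with intervals apart in both libraries. Farsa was 0.607 and 0.698 of the level of Fars2, whereas the other subunit, Farsb, was 1.18 and 1.22 times Fars2 with overlapping intervals. Tars was 0.914 and 1.02 times Tars2, also overlapping, with Tarsl2, a further threonine gene outside the rule, not counted. By counts, which are not divided by length, Farsa was 0.926 and 1.04 times Fars2, on both sides of equality, and Farsb 1.82 and 1.71 times. Lars was 0.593 and 0.631 times Lars2, and Tars was 1.38 and 1.53 times Tars2. By TPM of the second transcript table, Farsa was 0.573 and 0.610 times Fars2 and Farsb 1.93 and 1.46 times. Tars was 1.36 and 1.35 times Tars2 there.

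The Lars2 level depended on how the reads were assigned. The second transcript table, which the authors made directly from the reads, summed to 4.97 times the Lars2 level of the gene table (mean of the libraries), against a median of 1.32 over the synthetases. Its estimated counts were 2.43 and 2.53 times those of the gene table. It placed 46.0% and 48.1% of the gene's TPM on Lars2-205, a retained-intron transcript that the gene tables left at 0%, and 40.9% and 35.1% on Lars2-209, annotated as a target of nonsense-mediated decay. In the gene tables Lars2-209 took 50.3% and 36.1% and the coding Lars2-201 took 48.4% and 60.6%. Counting only protein-coding transcripts, Lars2 was at 11.9 and 16.1 TPM, and Lars was 0.970 and 0.879 of it. Over all transcripts of the second table the ratio was 0.168 and 0.161. Over its coding transcripts it was 1.08 and 0.872, so by that count, added after seeing the data, Lars was the higher in replicate 1. Lars2, with all its transcripts pooled, shared 0.869% of its 31-base words with other genes' annotated transcripts. Sequence outside the annotated transcripts was not compared, and the cause of the gap in Lars2 level was not tested.

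The 8 cytosolic enzymes of the multi-synthetase complex were Dars, Eprs, Iars, Kars, Lars, Mars, Qars and Rars. Their median was 31.8 TPM, against 18.1 TPM for the 12 other cytosolic genes, a ratio of medians of 1.75 ± 0.0671 (SD, n = 2). The ranges overlapped, as Sars, Nars and Gars, which are outside the complex, lay above Lars. The 3 scaffold genes were at unequal levels. Aimp2 was at 53.0 and 55.8 TPM, Aimp1 at 29.7 and 32.4 TPM, and Eef1e1, the smallest of the scaffold proteins, at 8.37 and 9.77 TPM. In the gene tables the intervals of Aimp2 overlapped those of Eprs, and Eef1e1 was below every cytosolic synthetase. The scaffold order depended on the quantification. The second transcript table put Aimp1, at 74.3 and 75.2 TPM, above Aimp2, at 68.8 and 70.9 TPM. Eef1e1 was lowest there too, at 4.79 and 5.08 TPM.

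By catalytic class, the 9 cytosolic class I genes had a median of 18.9 TPM and the 10 cytosolic class II genes 26.6 TPM, with Eprs, which joins an enzyme of each class, left out. The ratio of these medians was 0.712. In mitochondria the order was the other way, with 7.72 TPM for the 9 class I genes and 6.36 TPM for the 8 class II genes. This mitochondrial order of medians did not hold by CPM. The ranges of the classes overlapped in both compartments.

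The synthetase levels were also set beside the use of their amino acids. Codons of nuclear protein-coding transcripts were counted from the GENCODE M21 coding sequences and weighted by transcript TPM, which gave the share of codons that each cytosolic enzyme serves. Eprs served 14.2% of codons through glutamate and proline. Among enzymes that serve 1 amino acid, Lars served the largest share, 8.58%, then Aars with 7.75% and Kars with 7.61%. The giant sarcomere gene Ttn alone made up 12.6% of these weighted codons.

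Across 19 points the Spearman correlation of codon share and cytosolic TPM was 0.475 and Pearson's r was 0.572. The points share the same 2 libraries, and the correlation is given as a description. Nars, Wars and Cars had the highest level per codon served, 11.8, 11.7 and 11.6 TPM per percent of codons. Vars, Lars and Tars had the lowest, 2.13, 2.21 and 2.51 TPM per percent. Asparagine made up 3.56% of codons and Nars stood near the top of the order, whereas tryptophan and cysteine, at 1.00% and 1.52%, were the least used and Wars was the lowest cytosolic gene. Leucine, valine and threonine, at 8.58%, 6.36% and 5.45%, were common amino acids with enzymes in the lower part of the cytosolic order. The threonine value counts Tars alone. Tarsl2, a further threonyl-tRNA synthetase outside the rule, was at 19.27 and 19.99 TPM and was left out, so the low place of threonine depends on the rule. With the second transcript table the Spearman correlation was 0.323.

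**Figure D3:**
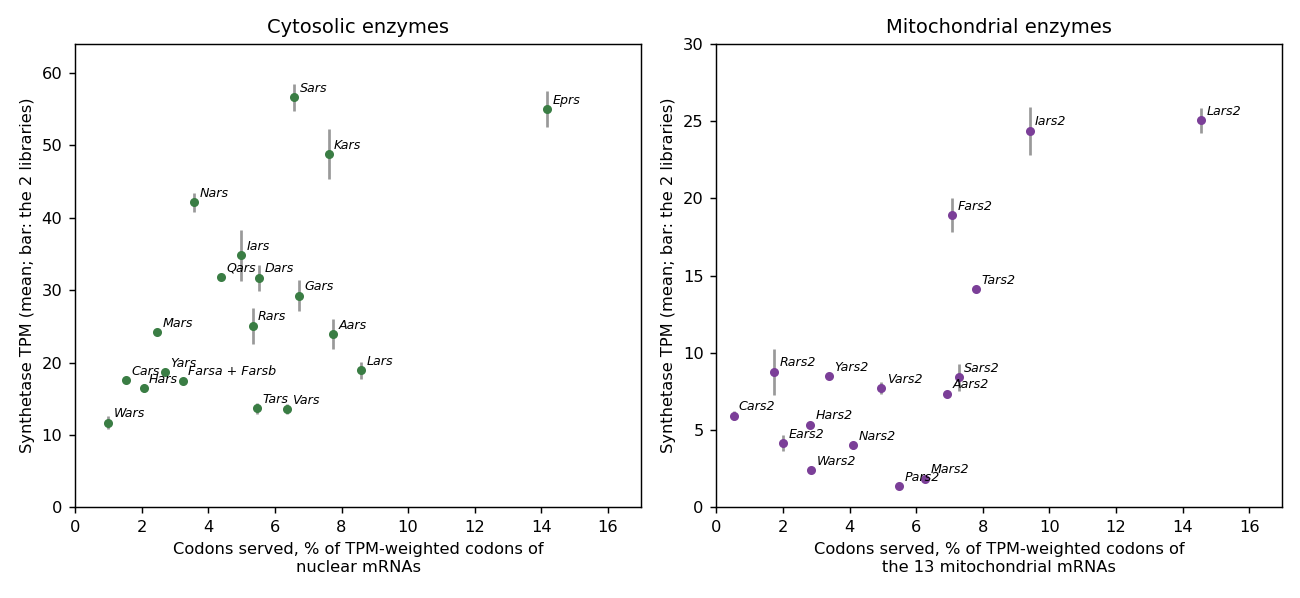
TPM of the synthetases, 1 mitochondrial gene left out (mean; bars join the 2 libraries) against the share of TPM-weighted codons that it serves, cytosolic enzymes with nuclear mRNAs on the left and mitochondrial enzymes with the 13 mitochondrial mRNAs on the right; axes are linear and their TPM scales differ. Lars2 and Iars2 are highest on the right at the largest codon shares, while Lars lies low on the left at a share of 8.58%.

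In mitochondria the 13 protein-coding genes of the mitochondrial genome used leucine for 14.6% of their codons and isoleucine for 9.41%. Lars2 and Iars2 were the mitochondrial synthetases of highest gene-table TPM. Threonine at 7.79%, serine at 7.29% and phenylalanine at 7.07% followed among the amino acids with a mitochondrial enzyme of their own. The Spearman correlation over 17 enzymes was 0.488 and Pearson's r 0.751, computed with gene-table TPM only. Counting only coding transcripts, Lars2 (11.9 and 16.1 TPM) was below Iars2 (22.6 and 25.6 TPM). In replicate 1 Lars2 was by that count also below Tars2 (13.2 TPM) and Fars2 (12.2 TPM), but not in replicate 2. Mars2 and Pars2 stood lowest per codon, at 0.294 and 0.250 TPM per percent of codons, although methionine and proline made up 6.28% and 5.48%. Cars2, at 11.5 TPM per percent, served the least used of these amino acids, 0.515% of codons.

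The transcripts of a gene differ in whether they can give the enzyme. The 37 genes had 299 annotated transcripts, and for 34 of the genes the most abundant transcript was the same in both libraries. The exceptions included Nars2 and Lars2. For 28 genes the most abundant transcript was the same in both libraries and in both quantifications. In the gene tables, 17 genes had at least 90% of their TPM on protein-coding transcripts in both libraries. The median coding share there was 92.5% in cytosolic and 83.5% in mitochondrial genes.

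**Figure D4:**
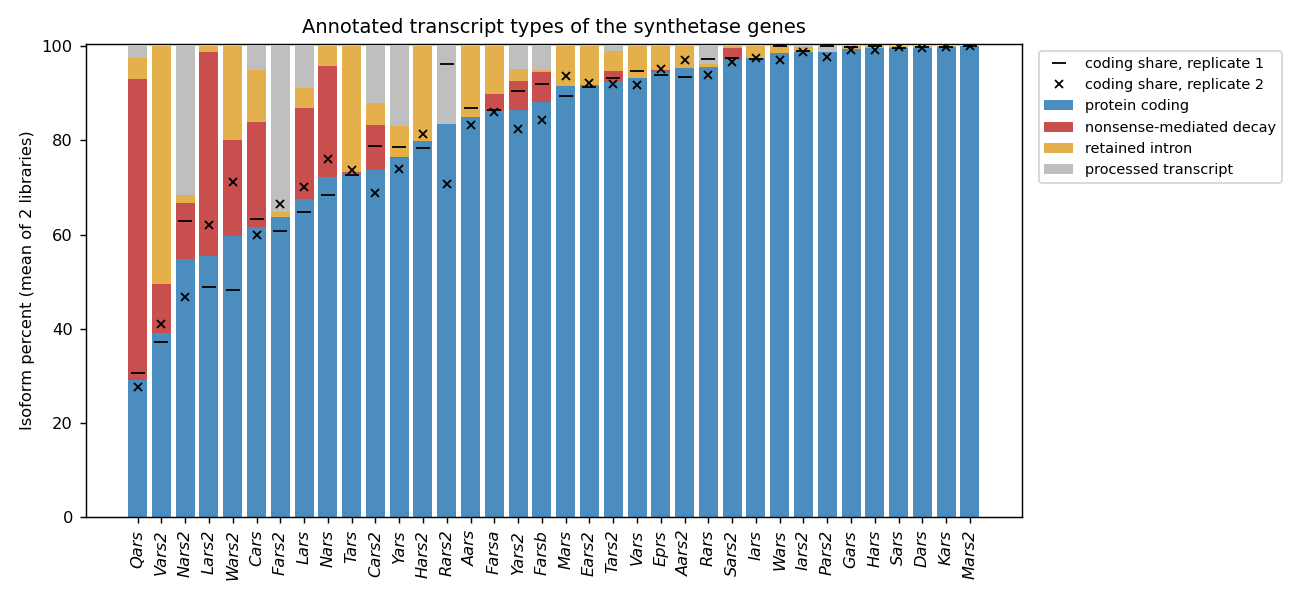
Isoform percent of the synthetase genes, 1 mitochondrial gene left out, by annotated transcript type (bars, mean of 2 libraries), ordered by the coding share; dashes and crosses mark the coding share in replicates 1 and 2. Of the genes shown, Qars and Vars2 lie under 50% in both libraries, and 17 genes lie at or above 90% in both.

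Under 50% of the gene-table TPM was coding in both libraries in 3 genes, Qars and Vars2 among them. Qars was coding for 30.6% and 27.6%, with 60.8% and 60.4% on Qars-231, which is annotated as a target of nonsense-mediated decay and has a reading frame of 100 codons. Vars2 was coding for 37.2% and 41.0%, and its retained-intron transcripts took 55.6% and 45.5%. By expected counts, not divided by length, the coding share of Vars2 was 69.4% and 82.0%, so it lay under 50% only per length. That of Qars was 15.9% and 10.3%. The full-length Qars-201 of 775 codons held 2.90% and 2.21% of Qars in the gene tables and 21.3% and 18.6% in the second table.

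Counting only coding transcripts, the cytosolic gene was still the higher in 15 of the 18 pairs in both libraries. The exceptions were leucine, threonine and the Farsa pair. By that count Tars was 0.713 and 0.820 of Tars2 and Farsa was 0.862 and 0.905 of Fars2. Vars was 4.47-fold and 3.94-fold above Vars2, a wider gap than in gene TPM.

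Kars shows a limit of such shares. In the gene tables the short form Kars-201 held 62.3% and 62.2% of the gene, and the long form, Kars-202 with Kars-203, held 37.6% and 37.7%. In TPM these were 28.2 and 32.5 for the short form and 17.1 and 19.7 for the long form. The libraries were close to each other in both values. The second table gave the short form 0 estimated counts in both libraries and the long form 87.2% and 86.6%. The exons printed above separate the forms, but the relative level of the cytosolic and mitochondrial forms of lysyl-tRNA synthetase could not be settled from these files. The cause of the gap between the tables was not tested.

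After TMM scaling the synthetase counts were close between the libraries. Ratios of replicate 2 over replicate 1 were taken on counts scaled by TMM, with exact 95% intervals that cover counting error only, and there is no test between 1 library and 1 library. Of the 37 genes, 0 differed by 1.5-fold or more, against 13.5% of the 15734 genes with a summed count of at least 20 and 7.83% of the 12536 genes with at least 100. At a limit of 0.322 on the log2 scale the count was also 0, against 23.3% of the genes with at least 100 counts. The log2 ratios ran from -0.32 for Farsb (1126 and 1168 counts) to 0.20 for Ears2 (224 and 332 counts), with a median of -0.08. The deviation was in the same direction for 27 genes, which lay below 0 (49.7% of genes with at least 100 counts did), and 10 lay above (50.3%). The intervals of 10 lay wholly below 0 and of 0 wholly above. The direction depends on the scaling: by total count 26 genes lay above 0 with a median of 0.049, and by spike-in count 32 lay above with a median of 0.14, while the median of all genes moved to 0.14 and 0.23. Ears2, the highest, was then at 0.324 and 0.417, past the log2 limit above, and by spike-in count Sars2 passed that limit too. Under either scaling 0 of the 37 genes passed 1.5-fold.

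**Figure D5:**
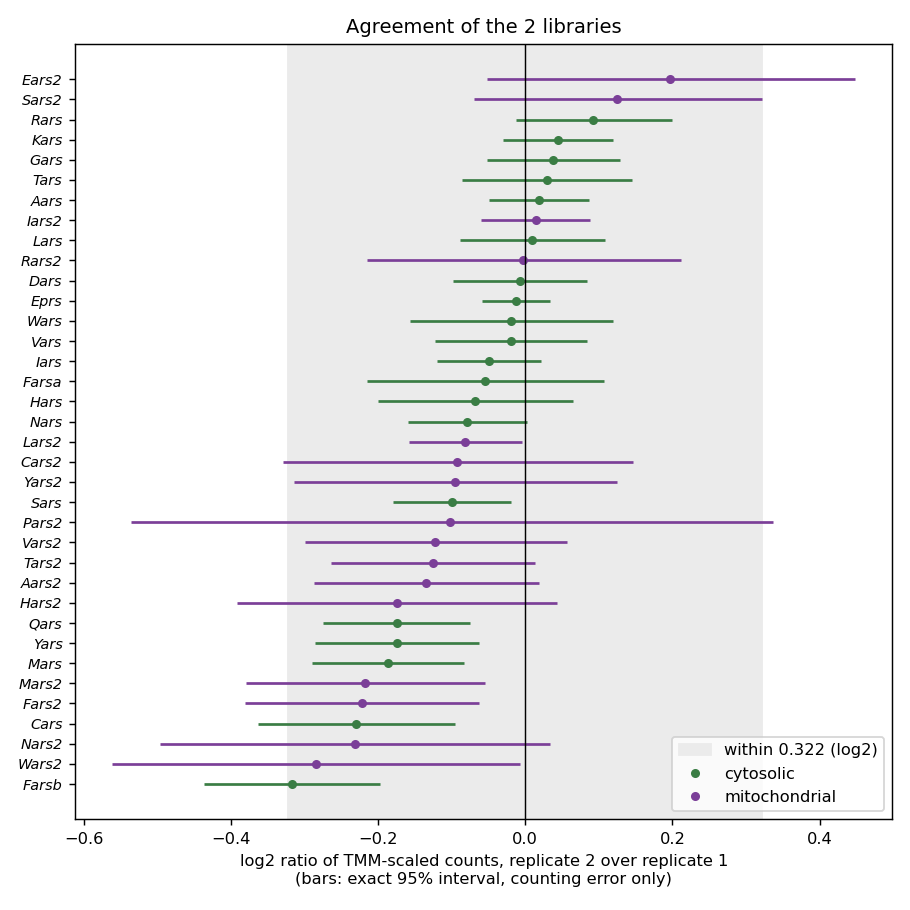
Log2 ratio of TMM-scaled counts, replicate 2 over replicate 1, for the synthetases, 1 mitochondrial gene left out, with exact 95% intervals for counting error and shading within 0.322 on the log2 scale. Every point lies inside the shading, from Farsb at -0.32 to Ears2 at 0.20, and the widest interval is that of Pars2, the gene with the fewest counts.

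Cytosolic and mitochondrial sets had close medians, -0.03 and -0.10 on the log2 scale. The 8 complex enzymes had a median of -0.01 and the 12 others -0.06. The Schwann cell and erythroid markers moved by far more over the same libraries (Hbb-bs, a haemoglobin gene, at 0.449 of replicate 1), and their part in the small synthetase differences was not tested.

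Uncharged transfer RNA activates the kinase GCN2, which leads to translation of ATF4, and ATF4 in turn is known to raise many cytosolic synthetase genes. Atf4 itself was at 49.7 and 49.5 TPM. The 13 synthetases listed as ATF4 targets had a median of 23.9 TPM, against 25.1 TPM for the 7 other cytosolic genes, and median log2 ratios between libraries of -0.02 and -0.05. Chac1, another ATF4 target, which degrades glutathione, was at 27.0 TPM in replicate 1 and 5.12 in replicate 2 (1169 and 256 counts), 0.170 of replicate 1 after scaling. Of 11 genes listed for this pathway, 1 passed 1.5-fold, Chac1, against 13.5% of all genes tested, so the list as a whole was near the background. Psat1 and Phgdh, enzymes of serine synthesis, lay the other way, at log2 ratios of 0.49 and 0.50 with intervals above 0, short of 1.5-fold. The 5 synthetases with the element printed above had log2 ratios from -0.17 in Yars to 0.04 in Gars. Of 7 amino acid transporters, Slc38a2, a neutral amino acid carrier, was at 51.7 and 35.9 TPM and Slc7a8 at 5.96 and 3.66 TPM, both past 1.5-fold lower in replicate 2. Slc7a1, a carrier of basic amino acids, lay the other way at a log2 ratio of 0.46, short of 1.5-fold. The pathway and carrier genes thus had no common direction.

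Charged transfer RNAs are handed to elongation factors. Eef1a2, the form of muscle and neurons, was at 1072 and 1172 TPM, above Eef1a1 at 635 and 813 TPM. Its mitochondrial counterpart Tufm was at 63.3 and 56.8 TPM. Mitochondria lack a glutamine enzyme and make glutaminyl-tRNA by amidation. The genes of that amidotransferase, Gatb (7.51 and 9.34 TPM), Gatc (9.11 and 9.17 TPM) and Qrsl1 (4.32 and 5.67 TPM), lay in the range of the mitochondrial synthetases. Mtfmt, which formylates the initiator methionine, was at 2.16 and 2.27 TPM, next to Mars2, the enzyme that supplies it.

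The synthetase genes lay on 15 chromosomes, with 6 on chromosome 1. Within 100000 bases of each other lay 2 pairs. Eprs and Iars2 are transcribed away from each other on chromosome 1 with 33647 bases between them. Hars and Hars2 are transcribed away from each other on chromosome 18 and overlap by 198 bases at their starts. Hars was 2.92-fold and 3.22-fold above Hars2 in TPM. Sequence shared with other genes was small. In 10 genes no 31-base word was shared with the transcripts of another gene, and in 2 genes over 5% was. These were Iars (14.7%, mostly with Gm4849) and Aars (13.9%, mostly with Exosc6). The second transcript table gave Iars 1.04 and 1.04 times its gene-table counts, and Aars 1.05 and 1.05 times. What the sharing does to the levels of these 2 genes was not tested.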

How the data were processed

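Total RNA libraries of gastrocnemius, 2 replicates of 1 group, were compared by gene. Per the labels and the submitters' notes, the assembly was mm10 and the annotation GENCODE M21. The sources used here do not name the aligner or the quantifiers. The deposited gene tables hold expected counts, which divide reads among genes, and TPM with a posterior mean and an interval of unstated level, per the file headers. They also deposited an isoform percent per transcript. A further deposited table, here the second transcript table, gives estimated counts and TPM per transcript, made directly from the reads.

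Expected counts were rounded. TMM factors from edgeR 4.0.16 were 0.957 and 1.05, with DESeq2 1.42.0 size factors, total counts and spike-in counts as alternatives. Log2 ratios of replicate 2 over replicate 1 used a prior count of 0.5 and exact (Clopper-Pearson) 95% intervals, which cover counting error only. A gene was tested at a summed count of at least 20 and called at 1.5-fold. With 1 library on each side no p-value was computed. Ratios were checked on simulated counts. Log2 ratios of TPM used a pseudocount of 0.01. Codon shares came from the coding sequences of the annotation, since no protein table was used here, and protein features were not analysed here. The reference is of C57BL/6J, and its effect on CAST/EiJ reads was not tested. All synthetases, the 3 highest genes of each other list, those past 1.5-fold and lists of 5 or fewer were named by rule, and any other name was picked with its values known. The members and lists were chosen with earlier results of these data known. Some genes are counted in sums but not reported singly here. Python 3.11.15, pandas 2.3.3, numpy 2.4.6, scipy 1.17.1 and R 4.3.3 were used.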

Additional observations from a re-analysis of the deposited data

How the results depend on the processing

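The cytosolic gene was the higher in 15 of the 18 pairs, and in 15 or 16 under each alternative run. All 37 genes reached the detection level of 1 TPM under each quantification, and 24 reached 10 TPM. The ratio of summed cytosolic over mitochondrial TPM (3.59) was 2.54 with the second transcript table, 3.49 with posterior mean TPM, 3.44 with CPM and 3.08 without Gars and Kars, and 3.54 to 3.63 with 1 replicate left out. The median log2 ratio of the pairs (1.59) was 1.71, 1.48 and 1.77 with these 3 quantifications, and 1.45 with a pseudocount of 1. The ratio of complex to other cytosolic medians (1.75) was 1.57 with the second table and 1.43 with CPM. The cytosolic class ratio (0.712) was 0.753 with the second table, 0.743 with posterior mean TPM and 0.775 with CPM. The median log2 ratio between libraries (-0.08) reversed to 0.049 with total counts and 0.14 with spike-in counts, and no alternative put a synthetase past 1.5-fold. The codon correlation (0.475) was 0.323 with the second table and 0.426 to 0.505 with 1 replicate left out. In single genes, 11 of 37 levels moved by more than 1 SD of the replicates with posterior mean TPM. With the second table it was 34 of 37, where the median ratio to gene-table TPM was 1.34 over 11954 genes and 1.32 over the synthetases. These counts depend on the SD, which ran from 0.00707 in Tars2 and Yars2 to 4.91 in Iars. With posterior mean TPM, Yars2 counted as moved from 8.495 to 8.78, whereas Rars2 did not from 8.78 to 9.41. CPM is another unit, so single levels were not compared. The cause of these shifts was not tested. No paired analysis was possible because the series holds 1 group. Depth limits Pars2 most, with 83 and 100 counts, and SDs rest on 2 libraries.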

Other observations

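Other genes that handle transfer RNA were also measured. Tarsl2, a second threonyl-tRNA synthetase whose symbol falls outside the rule, was at 19.27 and 19.99 TPM. In the gene tables it lay above Tars, at 12.9 and 14.5 TPM, with intervals apart in both libraries. The second transcript table put these genes close together, Tarsl2 at 24.4 and 25.6 TPM and Tars at 24.2 and 24.9 TPM. The editing factors, which remove wrongly joined amino acids, were lower. Prorsd1 was at 9.38 and 10.2 TPM, Aarsd1 at 9.15 and 7.97 TPM, Dtd1 at 4.86 and 6.11 TPM and Dtd2 at 2.33 and 2.82 TPM. The second table put Aarsd1 lower, at 1.92 and 1.61 TPM, and Prorsd1 higher, at 11.6 and 12.6 TPM. Of the genes for selenocysteine, which is made on a serine-charged transfer RNA, Pstk was at 14.14 and 14.97 TPM, Sephs2 at 10.6 and 11.3 TPM, Secisbp2 at 3.74 and 4.63 TPM, Eefsec at 3.26 and 3.14 TPM and Sepsecs at 2.84 and 2.89 TPM.

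Among genes of transfer RNA maturation and export, Hsd17b10, a subunit of mitochondrial RNase P, was at 46.1 and 44.6 TPM, Trnt1, which adds the terminal CCA, at 13.4 and 11.1 TPM, and the export factor Xpot at 9.81 and 13.8 TPM. Of these lists, 0 genes passed 1.5-fold between libraries, against 13.5% of all genes tested. The 22 mitochondrial transfer RNA genes were listed at 0 counts in both libraries, which by counting error alone allows up to 3 counts for each. Whether the libraries could capture transfer RNAs was not tested, so these values give no level for them.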
